A study of Mus musculus with 8 samples.

Results

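The 9 genes described here form the checkpoint that decides whether a cell in G1 goes on to copy its DNA: the inhibitors of cyclin-dependent kinases Cdkn2a, Cdkn2b, Cdkn2c, Cdkn1a and Cdkn1b, the tumour suppressor Trp53 with its antagonist Mdm2, and the D-type cyclins Ccnd1 and Ccnd2. They were taken by gene symbol from a deposited expression table of 31228 genes, and each symbol had 1 row. They were chosen with their difference between organoids and duct epithelium in view, so that difference is described without a test. The 8 mouse libraries, all of strain C57BL/6, came from 1 extrahepatic bile duct epithelium, 1 pancreatic duct epithelium, 3 bile duct organoids and 3 pancreatic duct organoids. Organoids are epithelial cultures that grow as hollow spheres in Matrigel, a basement membrane gel. Ducts of all groups were dissected, minced and digested with collagenase IV for 20 minutes. Epithelia were then lysed at once, and organoids were grown for 3 to 4 passages. Their medium held EGF at 50 ng/mL, R-spondin-1 at 100 ng/mL, Noggin at 25 ng/mL, FGF10 at 100 ng/mL and nicotinamide at 10 mM. The starting medium also held 30% Wnt3A conditioned medium and the ROCK inhibitor Y27632 at 10 µM, both withdrawn once hollow organoids had formed. Genotype, age and sex are not given in the labels, nor whether replicate organoids came from separate mice, so p-values measure the spread between these cultures only.

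In G1, D-type cyclins bind CDK4 and CDK6, and the complex phosphorylates the retinoblastoma protein RB, which releases E2F transcription factors and the genes of DNA replication. The INK4 proteins, among them the products of Cdkn2a, Cdkn2b and Cdkn2c, bind CDK4 and CDK6 and keep the cyclin away. The CIP/KIP proteins, p21 from Cdkn1a and p27 from Cdkn1b, act more broadly on cyclin-CDK complexes. Cdkn2a encodes a second protein, p19Arf, from an upstream first exon and another reading frame. Arf restrains MDM2, the ubiquitin ligase that marks p53 for degradation, and p53 in turn activates Cdkn1a and Mdm2. Adult bile and pancreatic ducts renew slowly, while organoids of either duct can be passaged for long periods in culture.

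Start site sequences are shown for the 3 inhibitors on which the results turn, because Cdkn2a has separate starts for its proteins and because p53 is known to bind upstream of Cdkn1a. Each run gives up to 250 bases upstream of a RefSeq transcript start, without bases that are exonic in GENCODE, read 5′ to 3′ on the gene's strand in build GRCm38.p6. Of the 9 members, 7 had such an entry in RefSeq, and Ccnd1 and Ccnd2 had none in the table used. Capitals mark a match to one of 4 motifs searched on both strands: an E2F site (TTTCCCGC, TTTGGCGC, TTTGCCGC or TTTCGCGC), a cyclic AMP response element (TGACGTCA), a GC box (GGGCGG, left in lower case) and the p53 consensus with at most 1 mismatch in 20 bases.
Cdkn2a, upstream (p19Arf) start, chr4:89294654-89294869, minus strand: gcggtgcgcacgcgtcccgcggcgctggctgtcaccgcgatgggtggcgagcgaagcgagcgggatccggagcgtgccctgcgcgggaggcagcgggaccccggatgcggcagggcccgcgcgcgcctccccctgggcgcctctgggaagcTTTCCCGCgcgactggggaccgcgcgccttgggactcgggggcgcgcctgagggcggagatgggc
Cdkn2a, inner (p16Ink4a) start, chr4:89282193-89282442, minus strand: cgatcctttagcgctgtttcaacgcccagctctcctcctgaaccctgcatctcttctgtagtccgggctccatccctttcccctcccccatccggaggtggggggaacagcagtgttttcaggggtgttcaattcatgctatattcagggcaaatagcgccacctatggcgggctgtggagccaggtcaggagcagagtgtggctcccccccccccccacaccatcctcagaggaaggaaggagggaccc
Cdkn2b, chr4:89311040-89311282, minus strand: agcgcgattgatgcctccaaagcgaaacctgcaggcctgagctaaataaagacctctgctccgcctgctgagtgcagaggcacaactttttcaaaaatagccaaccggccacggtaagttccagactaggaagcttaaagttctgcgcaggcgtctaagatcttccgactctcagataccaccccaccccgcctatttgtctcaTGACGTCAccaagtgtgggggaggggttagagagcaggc
Cdkn1a, chr17:29090729-29090975, plus strand: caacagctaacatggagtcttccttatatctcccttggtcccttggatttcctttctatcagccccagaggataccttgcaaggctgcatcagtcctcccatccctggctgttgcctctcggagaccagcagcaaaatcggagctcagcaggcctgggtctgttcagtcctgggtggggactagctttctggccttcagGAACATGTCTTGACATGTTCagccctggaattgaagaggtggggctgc
The full 250-base window of the upstream start of Cdkn2a, of which 216 bases are printed, held 40 CpG dinucleotides and 1 E2F match. The inner start held 7 CpG in 250 bases and no match. The median over 32851 mouse start windows was 6 CpG, and 1.86% of them held an E2F match. The cyclic AMP response element at Cdkn2b occurred in 1.55% of windows and the GC box in 32.7%. The p53 match at the upstream of 2 Cdkn1a starts (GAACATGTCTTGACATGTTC, chromosome 17, 29090928 to 29090947) had 1 mismatch, and 25 windows (0.0761%) held such a match. The window of the other Cdkn1a start in RefSeq (chr17:29093519-29093768, not printed) held 19 CpG, 2 GC boxes and no p53 match. The motifs were picked after the sequences had been seen, and a match is a run of letters, not a measured binding site.

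The deposited values imply 12876466 to 20828210 reads or read pairs per library. Levels below are scaled FPKM, that is fragments per exon length and library size, rescaled between libraries by a trimmed mean of log ratios. Differences are on the log2(scaled FPKM + 1) scale, which understates changes of weak genes, and a gene counts as higher or lower when the organoid mean lies at least 2-fold away and all 3 organoids lie on the same side of the epithelium. The scaling lowered organoids against epithelium by 0.27 (bile duct) and 0.28 (pancreatic duct) on the log2 scale, and the median of all genes tested then stood at -0.06 and -0.04, against 0.18 and 0.21 in the deposited values. The epithelium libraries held RNA of many other cells. The sum of 10 duct markers was 2660 in the bile duct epithelium, 590 in the pancreatic one and 4430 to 11089 across organoids. Of the other lists, 12 acinar genes summed to 19832 and 41024 in the epithelia and 1.65 to 7.62 in organoids, and 7 of them (Cpa1, Cpb1, Cela3b, Pnlip, Pnliprp1, Prss1 and Ptf1a) were at 0 in all organoids. For 8 fibroblast genes the sums were 1871 and 1955 against 0.266 to 2.81, with Lum at 0 in all organoids. For 6 smooth muscle genes they were 2220 and 3981 against 0.315 to 0.631. For 8 leukocyte genes they were 412 and 409 against 2.25 to 11.6. For 6 endothelial genes they were 379 and 654 against 0.0288 to 0.0832, for 6 nerve and glial genes 69.6 and 101 against 1.36 to 4.09, and for 6 endocrine genes 99.9 and 223 against 0 to 0.996 with Ins1, Gcg and Ppy at 0. In such bulk samples, fewer cells of a type and less RNA per cell cannot be told apart, and the part of this mixture in the differences below was not tested.

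Of the 9 members, 4 counted as higher in organoids in each organ: Cdkn2a, Cdkn2b, Trp53 and Ccnd1. None counted as lower. Among all genes tested, 12.2% were higher and 25.6% lower in bile duct organoids, which makes 37.8% in either direction. In pancreatic duct organoids 14.8% were higher and 24.5% lower, or 39.3% in either direction. Since the members were chosen on this contrast, nothing is read from their share. Cdkn1a, Mdm2 and Ccnd2 lay just under the line in pancreatic duct organoids, at 0.97, 0.92 and 0.88. With the FPKM as deposited, with upper-quartile scaling or with a scaling on all genes, 7 members counted as higher there instead of 4. In the bile duct, Trp53 came to 0.98 instead of 1.17 when only genes expressed in all libraries set the scale, and 3 members then counted as higher. With the FPKM as deposited or upper-quartile scaling 5 did, as Mdm2 then passed at 1.11 and 1.13.

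As the epithelium libraries held many other cells, each member was also set against the summed level of the 10 duct markers in the same library, a step added after seeing the data. Per duct marker, Cdkn2a and Cdkn2b had ratios of the organoid mean to epithelium above 1 in both organs, Ccnd1 in the bile duct but not in the pancreatic duct, and the other 6 members in neither. Single organoids lay on both sides of the epithelium for Ccnd1 in the pancreatic duct and for Mdm2 in the bile duct (2.04, 3.72 and 5.44 against 5.22). Keratins make up much of the marker sum: Krt8, Krt18 and Krt19 stood at 1102, 479 and 496 of 2660 in bile duct epithelium. In pancreatic duct organoid 1 they stood at 4429, 3003 and 2039 of 11089. Set against the marker Epcam alone, some ratios crossed 1: Mdm2 had 1.14 and Trp53 1.29 in the bile duct, and Ccnd1 had 1.03 in the pancreatic duct. The ratio takes a member's RNA from all cells of a library, and whether the markers themselves differ per cell in culture was not tested, so it is no level per duct cell.

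**Figure D1:**
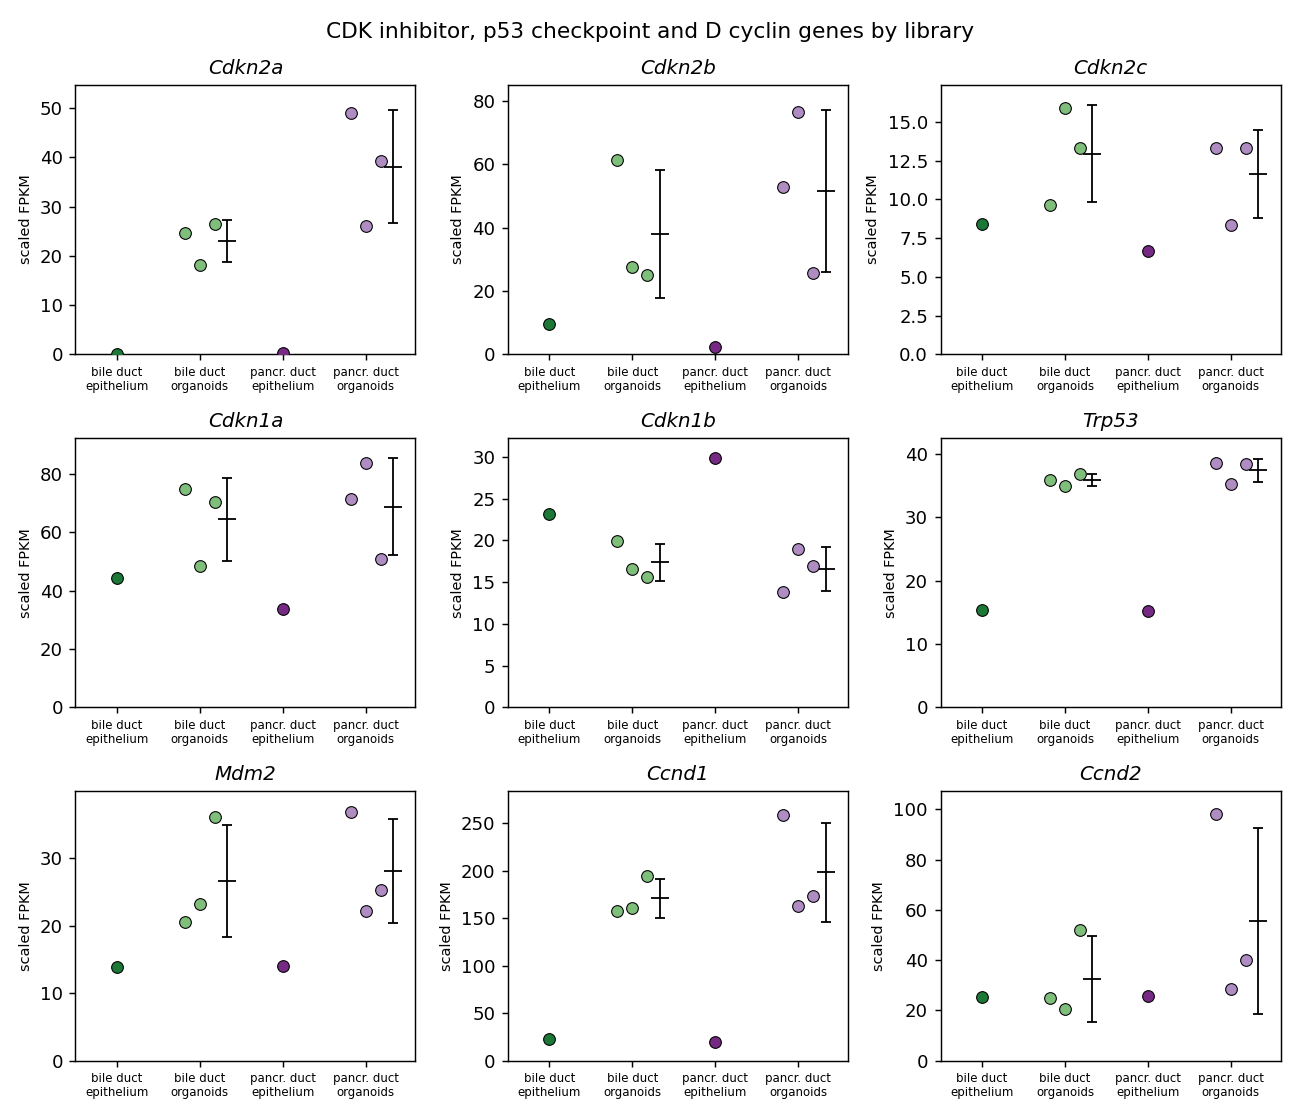
Scaled FPKM of the 9 members (linear axis from 0), 1 point per library, with mean and SD bars for each group of 3 organoids. Cdkn2a sits at 0.0761 and 0.257 in the epithelia and between 18.2 and 49 in the 6 organoids, whereas Cdkn1b is higher in both epithelia than in any organoid.

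Cdkn2a (ENSMUSG00000044303, chromosome 4, 89274471 to 89294653, minus strand), the locus of p16Ink4a and p19Arf, was nearly silent in the epithelia. It stood at 0.0761 in the bile duct, which corresponds to 1 read, and at 0.257 in the pancreatic duct, which corresponds to 4 reads. In bile duct organoids 1, 2 and 3 it stood at 24.6, 18.2 and 26.4, from 457 to 614 reads. In pancreatic duct organoids 1, 2 and 3 it stood at 49, 26.1 and 39.3, from 551 to 1043 reads. All organoids were far above both epithelia, and the lowest pancreatic culture lay within the range of the bile duct cultures. The log2 difference was 4.47 ± 0.27 (SD, n = 3) in the bile duct and 4.91 ± 0.45 (SD, n = 3) in the pancreatic duct. These values hang on the pseudocount: with 0.1 in place of 1 they were 7.02 and 6.69, and with 5 they were 2.46 and 3.00. The ratio of means was 303 in the bile duct, with a 95% Poisson interval of 54.4 to 11983 from the epithelium's reads, and 148 in the pancreatic duct, with an interval of 57.9 to 544. These intervals cover counting error only. Per duct marker the ratios were 109 and 12.4. The table has 1 row for the locus, so p16Ink4a and p19Arf cannot be told apart, nor which of the starts printed above was used.

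Cdkn2b (ENSMUSG00000073802, chromosome 4, 89306289 to 89311032, minus strand) encodes p15Ink4b and lies 11.6 kb from Cdkn2a. Its level was 9.54 in the epithelium of the bile duct and 2.16 in that of the pancreatic duct, the one member more than 2-fold apart between the epithelia on the log2(scaled FPKM + 1) scale (difference 1.74), where 13.7% of genes were. Bile duct organoids stood at 61.4, 27.6 and 25.2. Pancreatic duct organoids stood at 52.9, 76.7 and 25.6. Every organoid was above both epithelia, but cultures of 1 organ differed among themselves: the SD was 53.2% of the mean in the bile duct and 49.4% in the pancreatic duct. The log2 difference from epithelium was 1.77 ± 0.69 in the bile duct and 3.93 ± 0.79 in the pancreatic duct (SD, n = 3). Over the settings tried, it ran from 1.38 to 2.05 and from 2.87 to 4.38. Per 1000 scaled FPKM of duct markers, Cdkn2b stood at 3.59 and 3.66 in the epithelia of the bile duct and of the pancreatic duct, thus nearly level, and at 4.77 ± 1.19 and 6.41 ± 2.04 in the organoids (SD, n = 3). Its ratios to epithelium were then 1.33 and 1.75, beside 3.99 and 23.9 without markers. Read numbers were not recovered for this gene, nor for Cdkn1a, whose coordinates in the table differ from GENCODE M21, so both lack a counting interval.

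The neighbours of the Cdkn2a locus were read in a window of 250 kb on either side, a step added after the values had been seen. It held 12 genes of the table, of which 5 reached 1 FPKM in a library. Mtap, the gene of methylthioadenosine phosphorylase in the polyamine salvage pathway, stood at 10.8 and 10.2 in the epithelia and at 37.1 to 67.6 in organoids, with log2 differences of 1.94 in the bile duct and 2.27 in the pancreatic duct. The long noncoding gene Gm12603 stood at 1.41 and 0 in the epithelia and at 9.97 to 29.5 in organoids. The last of the 5, the small nucleolar RNA gene Gm26490, reached at most 1.35. Cdkn2a, Cdkn2b, Mtap and Gm12603, which lie between 89050308 and 89311032 on chromosome 4, were thus higher in all 6 organoids than in either epithelium. By the 2-fold rule, 9.08% of all genes were higher in both organs, and Cdkn2a and Cdkn2b were chosen on this contrast. Mtap and Gm12603 were not set against the duct markers.

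Cdkn2c (ENSMUSG00000028551, chromosome 4, 109660876 to 109667189, minus strand) encodes p18Ink4c. It stood at 8.43 in bile duct epithelium against 9.65, 15.9 and 13.3 in bile duct organoids, and at 6.64 in pancreatic duct epithelium against 13.3, 8.36 and 13.3 in pancreatic duct organoids. All organoids were above the epithelium of their organ, but the log2 differences of 0.54 ± 0.34 and 0.70 ± 0.35 (SD, n = 3) stayed under 2-fold. The last INK4 gene, Cdkn2d (p19Ink4d), pointed the other way at -0.40 in the bile duct and -0.95 in the pancreatic duct and did not count as lower. Summed over the 4 INK4 genes, the level was 27.9 and 23.4 in the epithelia and 69.2 to 120 in organoids.

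Of the CIP/KIP inhibitors, no gene counted as higher. Cdkn1a (ENSMUSG00000023067, chromosome 17, 29090979 to 29100722, plus strand), the gene of p21, was the most abundant inhibitor in both epithelia, at 44.5 in the bile duct and 33.9 in the pancreatic duct. Bile duct organoids stood at 74.9, 48.3 and 70.4, and pancreatic duct organoids at 71.4, 83.8 and 50.9. Each organoid was above its epithelium, by 0.50 ± 0.34 in the bile duct and 0.97 ± 0.36 in the pancreatic duct on the log2 scale (SD, n = 3), both under the 2-fold line. Cdkn1b (ENSMUSG00000003031, chromosome 6, 134920401 to 134925513, plus strand), the gene of p27, was lower in each organoid than in its epithelium. It stood at 23.2 in bile duct epithelium against 19.9, 16.6 and 15.6, and at 29.9 in pancreatic duct epithelium against 13.8, 19 and 16.9. The log2 differences were -0.41 ± 0.17 and -0.83 ± 0.22 (SD, n = 3). It counted as lower in the pancreatic duct (-1.03) past 2-fold only when genes expressed in all libraries set the scale or, at -1.01, when those expressed in 3 libraries did. The remaining family member Cdkn1c, the gene of p57, counted as lower in both organs, at -1.53 and -1.73. The ratio of Cdkn1a to Cdkn1b was 1.92 and 1.14 in the epithelia and 2.91 to 5.19 in organoids.

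**Figure D2:**
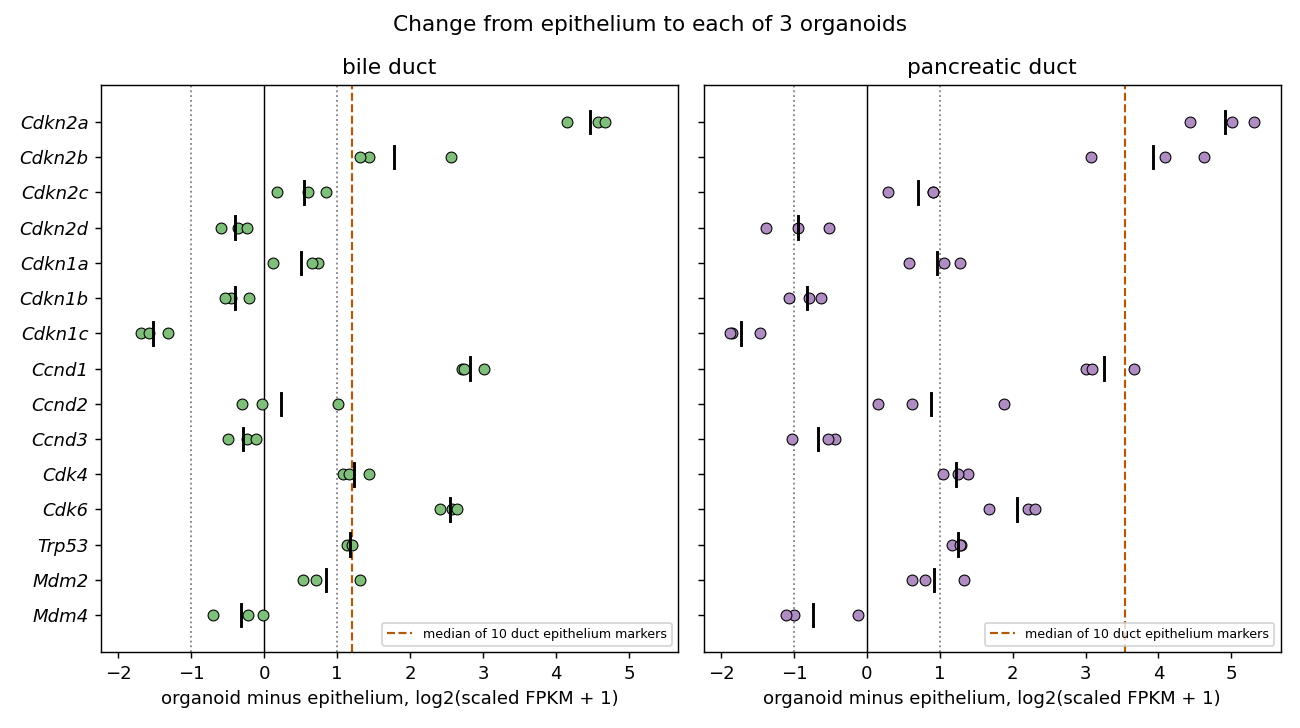
Difference of organoids from the epithelium of their organ in log2(scaled FPKM + 1) for the 9 members and 6 related genes, with 1 point per organoid and the mean as a bar. Dotted lines mark 2-fold and the dashed line the median of the 10 duct markers (3.54 in the pancreatic duct). Cdkn2a, Cdkn2b, Ccnd1 and Trp53 pass 2-fold in both organs (means from 1.17 to 4.91), and Cdkn1b is below 0 in every organoid.

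Ccnd1 (ENSMUSG00000070348, chromosome 7, 144929931 to 144939925, minus strand) was the member with the highest level in every organoid. Cyclin D1 is the growth factor-responsive activator of CDK4 and CDK6. Its gene stood at 23.2 in bile duct epithelium against 157, 161 and 194 in bile duct organoids, and at 19.4 in pancreatic duct epithelium against 258, 163 and 173 in pancreatic duct organoids. No organoid came near an epithelium, and the log2 differences were 2.82 ± 0.17 and 3.25 ± 0.36 (SD, n = 3), or 7.35-fold and 10.2-fold in ratio of means. Per duct marker the ratio was 2.70 in the bile duct and, on the other side of 1, 0.818 in the pancreatic duct. Pancreatic duct organoids stood there at 23.2, 18.5 and 39.1 per 1000 of duct markers against 32.9 in the epithelium, thus on both sides of it. Set against Epcam alone, the ratios were 4.18 and 1.03. The gene shares 1100 bases of exon with the antisense gene Oraov1 (LTO1 in GENCODE). The library kit does not mark strand, so reads from the shared bases cannot be told apart, and how they were assigned is not given. Oraov1 stood at 2.9 to 4.85 in all 8 libraries, and its part in the Ccnd1 values was not tested. The same limit holds for Ccnd2, with 368 bases shared with antisense 9330179D12Rik (0 to 0.36 in the 8 libraries) and 372 with Gm43126, and for Cdkn1a, with 273 bases shared with AC167363.2. Levels of Gm43126 and AC167363.2 were not analysed here.

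Ccnd2 (ENSMUSG00000000184, chromosome 6, 127125162 to 127152193, minus strand), the gene of cyclin D2, differed more between cultures than between organoids and epithelium. It stood at 25.4 in bile duct epithelium against 24.8, 20.4 and 52.1, so organoids lay on both sides. It stood at 25.8 in pancreatic duct epithelium against 98, 28.7 and 40. The log2 differences of 0.23 ± 0.69 and 0.88 ± 0.90 (SD, n = 3) were no larger than the spread between cultures, and without bile duct organoid 3 the bile duct value was -0.17. Without pancreatic duct organoid 1 the pancreatic duct value was 0.38. Ccnd3, the gene of cyclin D3, was at -0.29 and -0.67 and did not count. The 3 D-type cyclins together stood at 57.9 and 57.4 in the epithelia and 188 to 364 in organoids, and Ccnd1 made up 40.1% and 33.9% of that sum in the epithelia and 70.7% to 85.2% in organoids.

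Partners and targets of the D-type cyclins were read from lists of pathway genes. Both kinases counted as higher in both organs: Cdk6 by 2.55 and 2.06, and Cdk4 by 1.23 in each. Of 8 E2F factors, 4 counted as higher and 0 as lower in both organs (E2f1 2.35 and 2.40, E2f8 1.81 and 2.27, E2f3 1.68 and 1.27, and E2f7 1.13 and 1.36), where 9.08% of all genes were higher and 17.4% lower in both organs. The median of the 8 was 0.96 and 1.06. Of the 3 RB family genes, Rbl1, itself a target of E2F, counted as higher (1.47 and 1.49), while Rb1 was at -0.71 and -0.87 and Rbl2 at -0.67 and -0.60. Of 10 later cyclins, kinases and CDC25 phosphatases, 7 counted as higher in both organs, led by the mitotic cyclins Ccnb2 (3.07 and 3.78), Ccnb1 (2.94 and 3.59) and Ccna2 (2.63 and 3.15). All 30 proliferation genes on a further list counted as higher in both organs, with median differences of 2.39 and 2.49. Higher Cdkn2a and Cdkn2b, the 2 of the 4 INK4 genes that counted, thus stood beside higher cyclin D1, its kinases and the replication genes in the same libraries. Per duct marker, Ccnd1 had ratios of 2.70 and 0.818, and its kinases were not set against markers. In bile duct epithelium the 30 proliferation genes summed to 184 and the duct markers to 2660. In bile duct organoids 1, 2 and 3 the sums were 695, 1024 and 1109 beside 10053, 6250 and 6635. In pancreatic duct epithelium they were 123 beside 590, and in its organoids 882, 520 and 961 beside 11089, 8819 and 4430.

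Trp53 (ENSMUSG00000059552, chromosome 11, 69580359 to 69591873, plus strand), the gene of p53, was the steadiest member. It stood at 15.4 in bile duct epithelium against 35.9, 34.9 and 36.9 in bile duct organoids, and at 15.2 in pancreatic duct epithelium against 38.6, 35.3 and 38.4 in pancreatic duct organoids. All 6 organoids lay within 34.9 to 38.6, and the SD was 2.74% of the mean in the bile duct and 5.04% in the pancreatic duct. The log2 differences were 1.17 ± 0.04 and 1.25 ± 0.07 (SD, n = 3). Per duct marker the ratios of Trp53 in organoids to epithelium were 0.847 in the bile duct and 0.21 in the pancreatic duct, where the duct markers themselves were higher by a median of 3.54. Bile duct organoids stood at 3.57, 5.58 and 5.55 per 1000 of duct markers against 5.78 in the epithelium, so 2 of them were nearly level. Set against Epcam alone, the ratios were 1.29 and 0.246. Mdm2 (ENSMUSG00000020184, chromosome 10, 117688875 to 117710758, minus strand) stood at 13.9 in bile duct epithelium against 20.5, 23.3 and 36.1, and at 14.1 in pancreatic duct epithelium against 36.9, 22.2 and 25.3. Every organoid was above its epithelium, by 0.85 ± 0.41 and 0.92 ± 0.37 (SD, n = 3), just under 2-fold with the scaling used. The ratio of Mdm2 to Trp53 was 0.903 and 0.928 in the epithelia and 0.572 to 0.98 in organoids. Mdm4, the gene of the related p53 inhibitor MDMX, was at -0.32 and -0.74 and did not count. Among 14 genes of the p53 family and its regulators, 12 were tested and 3 counted as higher in both organs: Trp53, the kinase gene Hipk2 (1.71 and 2.01) and the checkpoint kinase gene Chek1 (1.71 and 1.57). Of all genes 9.08% were higher in both organs, and Trp53 was itself chosen on this contrast.

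Targets of p53 other than the members moved in both directions. Of 29 such genes, 14 counted as higher in bile duct organoids and 4 as lower (median difference 0.79). In pancreatic duct organoids 16 were higher and 5 lower (median 1.44), beside medians over all genes of -0.06 and -0.04. In both organs together, 14 were higher and 4 lower, where 9.08% of all genes were higher and 17.4% lower. Ranked by the smaller difference of both organs, Psrc1 (3.30 and 4.05) and Dyrk3 (2.57 and 2.59) came first. The pro-apoptotic gene Bax (2.22 and 2.77) and the sestrin gene Sesn2 (1.57 and 1.78) were also higher. Ranked the same way, those furthest below epithelium were the death receptor gene Fas (-3.04 and -3.75), the antiproliferative gene Btg2 (-2.82 and -2.48) and the second sestrin gene Sesn1 (-2.24 and -2.81), before Plk3 (-2.32 and -1.41). Fas stood at 18.6 and 31 in the epithelia, where leukocyte, fibroblast and endothelial markers were also high, and the part of such cells in its level was not tested.

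**Figure D3:**
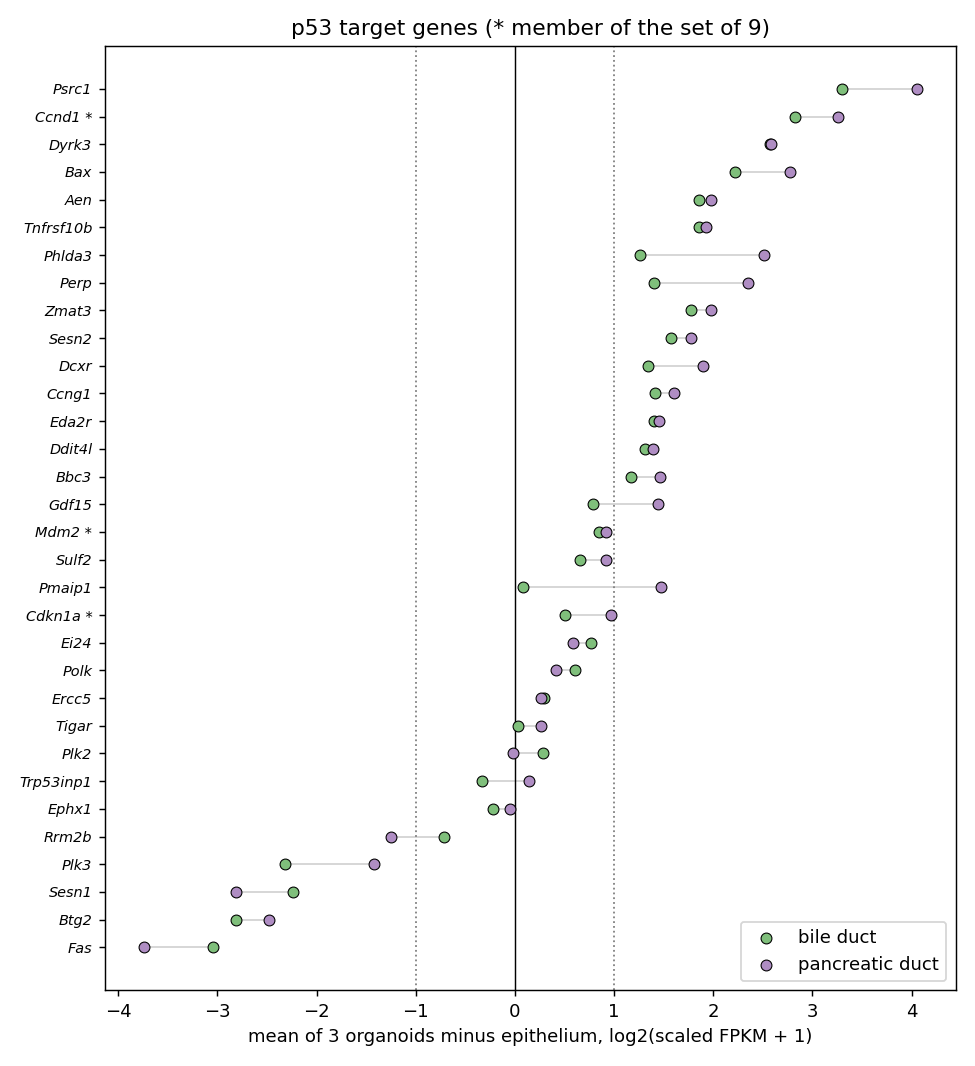
Difference of organoids from epithelium in log2(scaled FPKM + 1) for the p53 targets in the bile duct and pancreatic duct, as means of 3 organoids. Psrc1 is highest (3.30 and 4.05) and Fas lowest (-3.04 and -3.75), with Cdkn1a (0.50 and 0.97) and Mdm2 (0.85 and 0.92) between them.

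Genes that control the members were read the same way, and each count is to be read against the 9.08% of all genes that were higher and the 17.4% that were lower in both organs. Of 15 Polycomb genes, which encode repressors of the Cdkn2a locus among many others, 3 counted as higher in both organs: Ezh2 (1.67 and 1.66), Cbx2 (1.86 and 1.54) and Suz12 (1.08 and 1.00, so just past the line). Cbx7, a repressor of the locus too, counted as lower in the bile duct (-1.74) but not in the pancreatic duct (-0.11). The list's median was 0.08 and 0.31, and only 2 of its genes counted as higher in either organ when genes expressed in 3 or in all libraries set the scale. Bmi1, another well known repressor of the locus, was at -0.50 and -0.51. Of 10 other regulators of the locus, 3 counted as lower in both organs: Tbx3 (-2.54 and -2.26), Tbx2 (-2.07 and -3.27) and Twist1 (-1.31 and -1.29). The median of these 10 was -0.20 and -0.45, but 0.05 in the bile duct with the FPKM as deposited. Tbx2, Tbx3 and Twist1 encode transcription factors known to repress Cdkn2a and all are also expressed in mesenchyme, whose markers were nearly absent from organoids. The part of mesenchymal cells in these differences was not tested. Of 8 genes for the degradation of CDK inhibitors, 7 were tested and 3 counted as higher in both organs (Cdc20, Cks1b and Fzr1), while Skp2, which brings p27 to degradation, stayed under 1 FPKM in all libraries. Of 14 genes linked to senescence and its secretions, 3 were higher in both organs (Lmnb1 2.94 and 3.01, Ccl20 2.23 and 3.08, Plaur 1.36 and 2.11) and 3, or a share near that of all genes, lower (Il1b -3.79 and -2.53, Il6 -1.89 and -2.20, Mmp3 -4.90 and -1.29). The median of the 14 was 0.05 and 0.62, and in the bile duct it was -0.11 with genes expressed in all libraries setting the scale. Lmnb1, the gene of lamin B1, is known to be lost in senescent cells. Bile duct organoid 1 and pancreatic duct organoid 2 stood apart in 5 secreted factors of this list, picked after their values were seen. In these cultures the chemokine gene Ccl2 stood at 239 and 196, against 2.38 to 77.4 in the other 4 organoids. Cxcl1 stood at 82.7 and 66.1 against 12.4 to 19.9, and Cxcl2 at 31.4 and 29.3 against 1.27 to 5.16. The collagenase gene Mmp13 stood at 17.5 and 77 against 0.283 to 2.34, and the cytokine gene Il1a at 6.03 and 4.41 against 0.426 to 2.62. The same 2 cultures had the highest Cdkn2b.

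Bile duct and pancreatic duct organoids were compared with limma on 6 cultures, a contrast the choice of members did not use. No member differed after Benjamini-Hochberg adjustment over 12094 genes (0 called, 0%; the smallest adjusted p of any gene was 1). Without adjustment 307 genes (2.54%) had a p below 0.05. That number was 1027 without bile duct organoid 1, 164 without bile duct organoid 2 and 195 without bile duct organoid 3. On recovered reads, limma's voom called 1 of 10274. Cdkn2a alone of the members had an unadjusted p below 0.05. Scaled among organoids only, it averaged 24.3 ± 4.51 (SD, n = 3) in those of the bile duct and 39.8 ± 11.8 (SD, n = 3) in those of the pancreatic duct. The log2 difference was -0.66 with a 95% interval of -1.28 to -0.04 and a limma adjusted p = 1. For Ccnd2 the interval ran from -1.95 to 0.61 and for Cdkn2b from -1.61 to 0.79, so both intervals include levels 2-fold higher in pancreatic duct organoids. For Trp53 it ran from -0.27 to 0.17, the narrowest of the 9. The values of both organoid groups overlapped for all 9 members, and 6.76% of all genes tested had no overlap.

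Across the 6 organoids, each member was set against the mean log2 level of the 30 proliferation genes and against that of the 29 other p53 targets. This gave 18 relations, tested by exact permutation over 720 pairings, two-sided, and adjusted by the Benjamini-Hochberg method. Cdkn2a followed the p53 target mean: Pearson r was 0.973 (exact permutation p = 0.00139, adjusted p = 0.025) and Spearman rho 1 (exact permutation p = 0.00278, adjusted p = 0.05), where only the first fell below the threshold of 0.05. The target mean was 4.04, 3.82 and 4.11 in bile duct organoids 1, 2 and 3, and 4.43, 4.11 and 4.22 in pancreatic duct organoids 1, 2 and 3, so the order, before rounding, was the same as for Cdkn2a within each organ and over both. Without the 2 farthest cultures (bile duct 2 and pancreatic duct 1), r was 0.962. Of the 29 targets, 27 had an r above 0 with Cdkn2a, with a median of 0.57, where 49.7% of 12085 genes had one. With Trp53 24 had one (median 0.58), where 50.3% of genes did, and with Cdkn1a 17 (median 0.04), where 48.3% did. Cdkn1a, the target most often measured for p53, had an r of 0.349 with the mean of the others (exact permutation p = 0.517, adjusted p = 0.688). For Trp53 the r was 0.871 (exact permutation p = 0.00833, adjusted p = 0.05), which did not pass the threshold, and it fell to 0.70 under another setting. Ccnd2 stood higher, with an r of 0.895 (exact permutation p = 0.0153, adjusted p = 0.055). Ccnd1 had an r of 0.799 (exact permutation p = 0.0653, adjusted p = 0.196), and neither cyclin gene passed. Without the 2 farthest cultures r was 0.831 for Trp53, 0.506 for Ccnd2 and 0.329 for Ccnd1.

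Cdkn2b was lower where proliferation genes were higher. Pearson r was -0.916 (exact permutation p = 0.00417, adjusted p = 0.0375), and Spearman rho was -0.943 (exact permutation p = 0.0167, adjusted p = 0.075), which misses the threshold. The proliferation mean was lowest in pancreatic duct organoid 2 (3.88) and bile duct organoid 1 (4.28), the cultures with the highest Cdkn2b and the highest Ccl2, Cxcl1, Cxcl2, Mmp13 and Il1a, and highest in bile duct organoids 2 and 3 (4.82 and 4.92). Without pancreatic duct organoid 2 and bile duct organoid 1, r was -0.841. None of the 30 proliferation genes had an r above 0 with Cdkn2b, and 25 had one of -0.8 or lower, as did 15.6% of all genes. Cdkn2c ran the other way, with an r of 0.933 (exact permutation p = 0.0139, adjusted p = 0.055), but r was 0.259 without the same 2 cultures, so the relation rests on them. Of the 18 relations, 2 passed the adjusted threshold. All share the same 6 libraries and their scaling, and 3 cultures per organ are too few for a value within an organ.

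**Figure D4:**
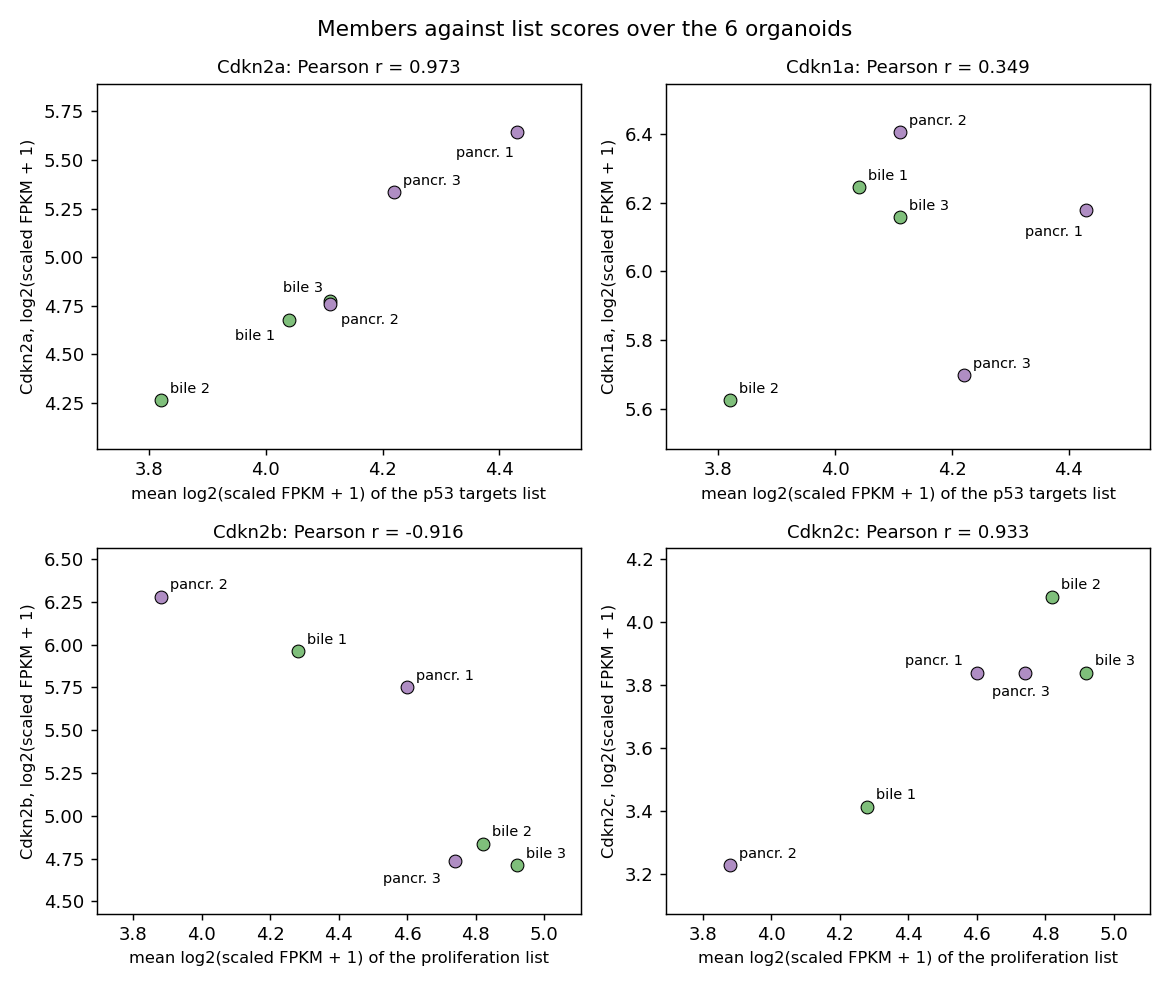
Log2(scaled FPKM + 1) of Cdkn2a and Cdkn1a against the mean of the p53 targets (top) and of Cdkn2b and Cdkn2c against the mean of the proliferation genes (bottom), 1 point per organoid. Cdkn2a rises with the target mean from bile duct organoid 2 (3.82) to pancreatic duct organoid 1 (4.43), and Cdkn2b is highest in pancreatic duct organoid 2, where the proliferation mean is lowest (3.88).

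Over the 6 organoids, the named protein-coding genes most like Cdkn2a among 10321 ranked by Pearson r were Aggf1 (0.987), Cryab (0.986) and Maf (0.986). Cryab, a small heat shock protein gene, stood at 9.1 to 13.6 in organoids of the bile duct and 16.7 to 40.8 in those of the pancreatic duct, and unlike Cdkn2a it was higher in the epithelia, at 72 and 106. Those most like Cdkn1a were Rph3al (0.981), Runx2 (0.973) and Dnm1l (0.965). Those most like Ccnd1 were Jdp2 (0.994), Tm2d2 (0.988) and Utp14b (0.984). With 6 points and so many genes ranked, such values are a description.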

How the data were processed

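Per the labels' protocols, polyadenylated RNA went into NEBNext Ultra libraries. The authors deposited FPKM for 8 libraries in 1 table; 0 per-sample columns were left aside. Bowtie2 2.2.3, HISAT2 2.1.0, TopHat2 and HTSeq 0.6.0 are named in the submitters' processing notes without a role; build, annotation, filters and strand setting are not given in the sources used here. Of 31141 gene IDs found in GENCODE M21 (GRCm38), 28575 had identical coordinates. FPKM times exon length gave whole reads within 0.05 of a read in every library for 28307 genes (90.6%); the read numbers come from these steps.

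FPKM were scaled by an unweighted trimmed mean of log ratios (30% of ratios and 5% of levels trimmed) over genes reaching 1 FPKM in 1 or more libraries. This gene set was chosen after 4 had been compared on the data. The organoid shift against epithelium was 0.12 and 0.15 (bile duct, pancreatic duct; log2) with all genes, 0.27 and 0.28 with the set used, 0.44 and 0.47 with genes expressed in 3 libraries, and 0.47 and 0.50 with genes expressed in all libraries. The set used matches an earlier description of these data. A pseudocount of 1 was added. Organoids were compared by limma 3.58.1 (R 4.3.3) with an intensity trend over genes reaching 1 FPKM in 3 or more organoids, Benjamini-Hochberg threshold 0.05, after a test on simulated data. With 1 epithelium library per organ, no p-value was computed against epithelium. Other steps used Python 3.11.15.

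Members and lists were chosen with earlier results of these data known. Named genes are all members, up to 3 genes per list and direction called in both organs, and the 3 genes most like Cdkn2a, Cdkn1a and Ccnd1. Named outside this rule, after their values were seen, were Oraov1, 9330179D12Rik, Mtap, Gm12603, Gm26490, Bax, Sesn2, Plk3, E2f7, Cbx7, Ccl2, Cxcl1, Cxcl2, Mmp13, Il1a, Bmi1, Skp2, Rb1, Rbl2, Cdkn2d, Ccnd3 and Mdm4, and the markers Cpb1, Cela3b, Pnliprp1, Prss1, Ptf1a, Epcam, Krt8, Krt19, Ins1 and Gcg. The motifs, the locus window, the count of targets with an r above 0 and the level per duct marker were also added after seeing the data.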

Additional observations from a re-analysis of the deposited data

How the results depend on the processing

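With the FPKM as deposited, upper-quartile scaling or scaling on all genes, 7 members counted as higher in pancreatic duct organoids instead of 4, and 8 did at 1.5-fold. One member, Cdkn1b, counted as lower there (1 instead of 0) with scaling on genes expressed in 3 or in all libraries, or at 1.5-fold. In bile duct organoids 2 members passed 4-fold. Leaving out 1 organoid gave 4 to 5 members higher in the bile duct and 4 to 6 in the pancreatic duct. Genes higher in bile duct organoids numbered 992 with a pseudocount of 5, 3651 at 1.5-fold and 361 at 4-fold against 1934, and lower ones 1918 with a pseudocount of 5 and 2007 at 4-fold against 4062. In pancreatic duct organoids the higher genes numbered 1268, 3992 and 648 against 2311, and the lower ones 1824 and 1843 against 3840. Between organoid groups, voom on recovered reads called 1 gene, and leaving out 1 culture gave 0 to 11, with 11 without pancreatic duct organoid 3; none was a member. Unadjusted, 682 of 26795 genes passed with no filter, and leaving out 1 culture gave 164 to 1027 against 307. The replicate block called 0 genes (288 unadjusted). Deviations of same-numbered cultures from their group means had an r of -0.104, -0.44 and 0.482. With 3 cultures per group, these values cannot decide whether the numbers pair cultures. Under these settings no member counted as higher in one and lower in another, and Ccnd2 in the bile duct, which did not count, turned to -0.17 without bile duct organoid 3. Per duct marker, however, members that counted as higher had ratios below 1: Trp53 in both organs (0.847 and 0.21) and Ccnd1 in the pancreatic duct (0.818). Set against Epcam alone, Trp53 in the bile duct (1.29) and Ccnd1 in the pancreatic duct (1.03) were above 1, and Trp53 in the pancreatic duct (0.246) was not. For Ccnd1 per duct marker, pancreatic duct organoid 3 lay above the epithelium (39.1 against 32.9). The scaling and the gene sets in 3 libraries, all libraries and all genes were chosen after seeing the data. The causes were not tested. The 1 and 4 reads of Cdkn2a limit its ratio to epithelium.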
